A study of Mus musculus with 6 samples.

Results

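The genes described here are 8 receptors of T cells whose names begin with Gpr, several of them orphan or lipid-sensing receptors: Gpr83, Gpr15, Gpr183, Gpr132, Gpr171, Gpr174, Gpr18 and Gpr55. They were chosen by name, and each matched 1 of the 55840 rows of the deposited table. The cells were mouse Tregs, the CD4 T cells that restrain immune responses under the transcription factor Foxp3, and came from spleen and lymph nodes. The WT group had 3 libraries, and the Exon2KO group had 3 libraries of Tregs that the series title marks as Foxp3 delta 2, a form named for the missing second exon. The labels call the libraries biological replicates but give no mouse age, sex, sorting scheme or organ per library, and no Cre or transgene; whether each replicate is 1 mouse is not given in the sources used here. Each library is called by its genotype and the number in its column name (2, 6 or 20), which is not the replicate number of the sample titles.

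G protein-coupled receptors pass signals from outside the cell to heterotrimeric G proteins, which are then shut off by RGS proteins, receptor kinases and arrestins. In lymphocytes many of them steer migration and positioning or adjust cyclic AMP, and several of the 8 respond to lipids made by neighbouring cells. Gpr55 responds to lysophosphatidylinositol and Gpr174 to lysophosphatidylserine. Gpr132 responds to lysophospholipids and oxidised fatty acids, Gpr18 is reported to respond to N-arachidonoyl glycine, and Gpr183, also named EBI2, to oxysterols. Gpr15 guides T cells, Tregs among them, to the large intestine, Gpr83 is an abundant receptor of Tregs, and Gpr171 is a receptor for a neuropeptide.

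Depth was similar in the 6 libraries, at 17998216 to 21003496 counts. All 8 genes passed the filter on low counts, as did 14919 genes of the table. The Treg label was checked against 7 markers, whose summed level was 3442 to 3888 CPM (read counts scaled to equal library size) in WT and 3167 to 3552 CPM in Exon2KO. Foxp3 itself ranged from 602 to 783 CPM in WT and from 684 to 925 CPM in Exon2KO; counts per gene cannot show whether its second exon was missing. Libraries that share a number varied together around their genotype's mean, so a fit with that number as a replicate block is given wherever it changed a call. A call means an adjusted p under 0.05 over all tested genes in edgeR's quasi-likelihood test.

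Of the 8 genes, 2 fell in Exon2KO, Gpr55 and Gpr15, and none rose. Over all tested genes 1.58% were called lower and 0.757% higher. With the column number as a replicate block 3 of the 8 were called lower (Gpr55, Gpr15 and Gpr174), where 5.79% of all tested genes were, and 1 was called higher (Gpr132), where 3.93% of all tested genes were. Across the 8 genes the median log2 fold change was -0.19, with 6 values below 0, and across all tested genes it was 0.0084. The groups did not overlap for Gpr55 and Gpr15, which were lower, and for Gpr132, which was higher; over all tested genes 9.32% and 8.35% were without overlap in these directions. These are bulk libraries, so fewer cells that express a gene and less RNA per cell cannot be told apart.

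**Figure D1:**
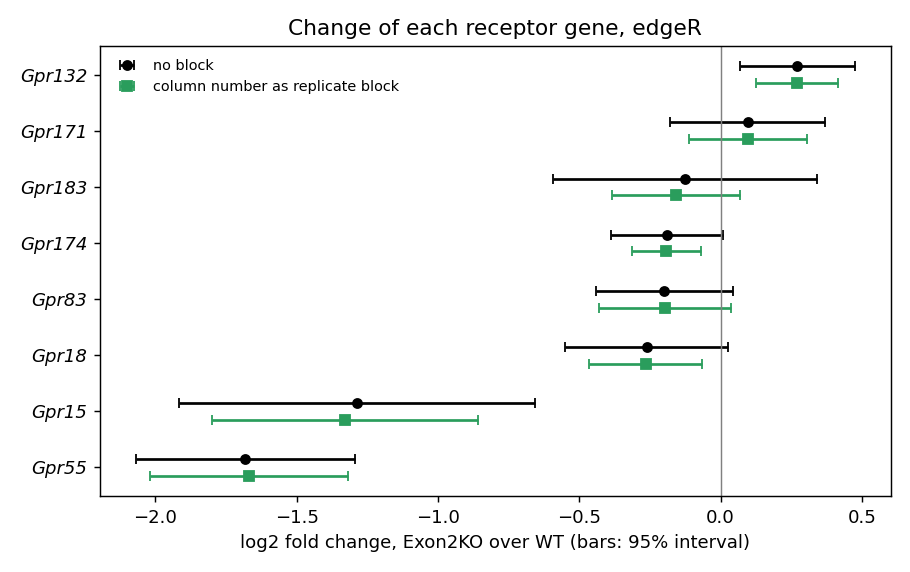
Log2 fold change of each receptor gene (x axis, Exon2KO over WT) with its unadjusted 95% interval, without a block (black circles) and with the column number as replicate block (green squares); n = 3 libraries per genotype. Gpr55 (-1.68) and Gpr15 (-1.29) stand apart from the other 6 genes, which lie between -0.26 and 0.27.

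Levels were compared between genes per length, as CPM per kilobase of the gene length in the table. In WT the order from high to low was Gpr132, Gpr83, Gpr174, Gpr18, Gpr183, Gpr171, Gpr55 and Gpr15. The WT mean of Gpr132 was 45.8 ± 3.04 CPM per kilobase (SD, n = 3), above that of 93.0% of the tested genes, and that of Gpr15 was 6.98 ± 0.881 CPM per kilobase (SD, n = 3), above 57.1% of them. The WT ranges of neighbours overlapped for Gpr83 and Gpr174 (means 33.0 and 28.2 CPM per kilobase), for Gpr171 and Gpr55 (9.14 and 8.13 CPM per kilobase) and for Gpr55 and Gpr15; the other neighbours were apart, with Gpr18 at 17.7 and Gpr183 at 12.5 CPM per kilobase on average.

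In Exon2KO the first 6 places of this order were the same and the last 2 were exchanged. Gpr55 had 2.53 ± 0.362 CPM per kilobase (SD, n = 3) and Gpr15 2.85 ± 1.10 CPM per kilobase (SD, n = 3), with overlapping ranges. Gpr171, the gene next above them, had 9.78 ± 0.818 CPM per kilobase (SD, n = 3), 3.43 times the mean level of Gpr15, where in WT it was next to Gpr55 with overlapping ranges. The ranges of Gpr83 and Gpr174, of Gpr18 and Gpr183, and of Gpr183 and Gpr171 also overlapped in Exon2KO.

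**Figure D2:**
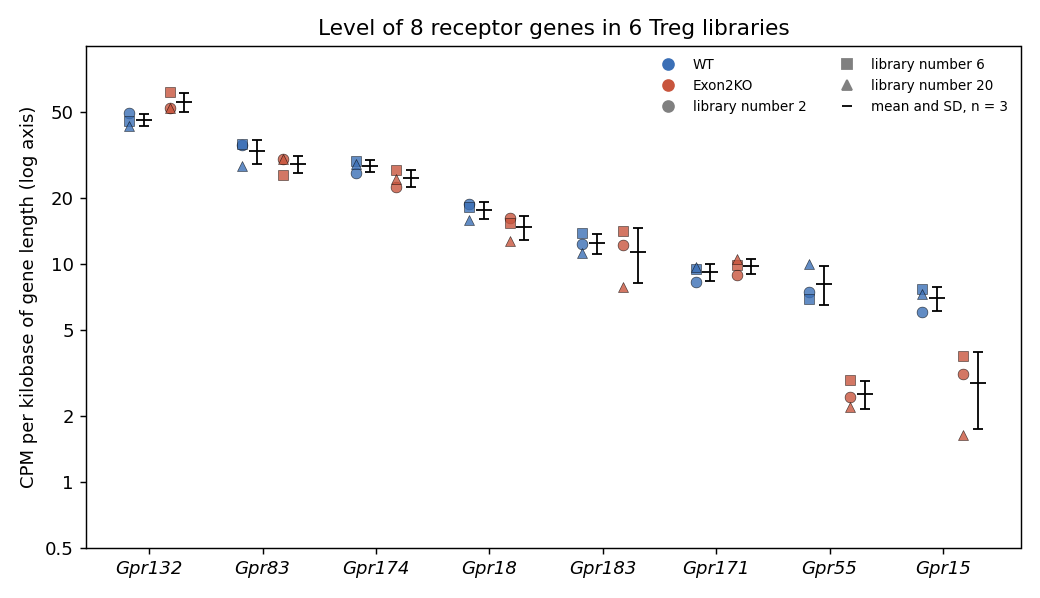
Level of the 8 receptor genes in each library (CPM per kilobase, log axis), WT in blue and Exon2KO in red, with the mean and SD of 3 libraries beside the points. The 2 genes at the right, Gpr55 and Gpr15, lie at 3.79 or below in all Exon2KO libraries, under all of their WT libraries.

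Gpr55, the lysophosphatidylinositol receptor, changed most. Its reads numbered 516, 469 and 792 in WT 2, 6 and 20, or 27.7, 25.8 and 37.2 CPM. In Exon2KO 2, 6 and 20 it had 165, 212 and 146 counts, or 9.17, 10.9 and 8.21 CPM. The lowest WT library was above the highest Exon2KO library, and WT 20 was the highest of all. The group means were 30.2 ± 6.07 and 9.42 ± 1.35 CPM (SD, n = 3 each). The log2 fold change was -1.68 (SE 0.17, 95% interval -2.07 to -1.29, edgeR adjusted p = 0.00218), a 3.21-fold lower level. By p-value Gpr55 ranked 20 among the 14919 genes. Its call held in each of the 6 fits that left out 1 library, where the largest adjusted p was 0.0193. Without both libraries numbered 20, whose deviations across genes were the most alike, the log2 fold change was -1.42 (edgeR adjusted p = 0.00168). The authors' deposited table lists Gpr55 at -1.68 on the log2 scale, with an adjusted p of 1.26e-15.

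Gpr55 (ENSMUSG00000049608) lies on chromosome 1, 85938318 to 85961007, on the minus strand (GRCm38), and its coding sequence of 981 bases is in 1 exon of a single annotated transcript. The gene 4933407L21Rik on the opposite strand shares 71 exon bases with it, but had 66 counts over all 6 libraries against 2300 for Gpr55. Its log2 fold change was -1.30, in the same direction as that of Gpr55, and was not called (edgeR adjusted p = 0.506). The stretch before the RefSeq start of Gpr55 is shown because Gpr55 had the largest change, with that of Gpr83, whose change did not pass the test, for contrast. Both come from RefSeq (GRCm38.p6), 5′ to 3′, and capitals mark a match to the Runx motif TGTGGT, here as its reverse complement.
Gpr55 promoter, chr1:85961056-85961305, minus strand: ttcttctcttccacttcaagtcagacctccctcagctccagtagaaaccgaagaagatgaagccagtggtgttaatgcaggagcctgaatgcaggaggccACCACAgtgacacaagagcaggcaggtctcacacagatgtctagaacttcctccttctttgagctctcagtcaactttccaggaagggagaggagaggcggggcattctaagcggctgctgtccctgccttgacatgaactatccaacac
Gpr83 promoter, chr9:14859960-14860209, plus strand: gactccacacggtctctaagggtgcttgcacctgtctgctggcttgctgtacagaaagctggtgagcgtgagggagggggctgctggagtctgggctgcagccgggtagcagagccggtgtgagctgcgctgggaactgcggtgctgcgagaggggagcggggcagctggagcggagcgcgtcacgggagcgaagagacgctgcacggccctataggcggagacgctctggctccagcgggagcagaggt
The 2 stretches differ in base composition. In the RefSeq window of 250 bases before to 50 after the start, GC content was 52.3% for Gpr55, near the median of 52.7% over 32851 such windows, and 67.0% for Gpr83, above that of 85.6% of the windows.

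Gpr15, the homing receptor of the large intestine, fell too, with less margin. Its reads numbered 183, 229 and 253 in WT 2, 6 and 20, or 9.83, 12.6 and 11.9 CPM. In Exon2KO 2, 6 and 20 it had 92, 121 and 48 counts, or 5.11, 6.21 and 2.70 CPM. The groups did not overlap, and Exon2KO 20 was the lowest library. The group means were 11.4 ± 1.44 and 4.67 ± 1.79 CPM (SD, n = 3 each). It changed by -1.29 on the log2 scale (SE 0.28, 95% interval -1.92 to -0.66, edgeR adjusted p = 0.0497), a 2.44-fold lower level. This adjusted p lies at the edge of the threshold, and by p-value Gpr15 ranked 346 of the 348 called genes. With the replicate block it was -1.33 (SE 0.22, edgeR adjusted p = 0.00166). The edgeR adjusted p was 0.133 without WT 2, 0.182 without WT 6, 0.126 without WT 20 and 0.188 without Exon2KO 2, so the call without a block was lost in these 4 fits, with log2 fold changes of -1.39, -1.21, -1.26 and -1.36. Without both libraries numbered 20 it was -0.99 (edgeR adjusted p = 0.0482). The authors' deposited table lists Gpr15 at -1.28 on the log2 scale, with an adjusted p of 0.000424.

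Gpr15 (ENSMUSG00000047293) lies on chromosome 16, 58717433 to 58719070, on the minus strand (GRCm38), as a single exon with a coding sequence of 1080 bases. Of its exon, 204 bases are shared with Cpox on the opposite strand, a gene of haem synthesis with 4988 counts over all libraries against 926 for Gpr15. Cpox had a log2 fold change of -0.24 (edgeR adjusted p = 0.392), and since the strand setting of the counting is not given in the sources used here, reads of the shared bases cannot be assigned. The RefSeq start of Gpr15 lies inside the GENCODE exon, so only the 52 bases of the RefSeq window before that exon are shown, for the other gene that fell.
Gpr15 promoter, chr16:58719071-58719122, minus strand: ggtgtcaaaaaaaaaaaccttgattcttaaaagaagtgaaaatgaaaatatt
The whole RefSeq window of Gpr15 had a GC content of 33.7%, and 2.61% of all windows had less.

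Gpr132, a receptor for lysophospholipids and a member of the proton-sensing receptor family, had the highest level of the 8 genes per length. It had 133, 123 and 117 CPM in WT 2, 6 and 20, and 142, 167 and 142 CPM in Exon2KO 2, 6 and 20. All 3 Exon2KO libraries were above all 3 WT libraries, by a small margin between WT 2 and Exon2KO 20; among all tested genes 21.4% were higher in every same-numbered pair, as Gpr132 was. Its change was 0.27 on the log2 scale (SE 0.09, unadjusted 95% interval 0.07 to 0.47), which did not pass the test over all genes (edgeR adjusted p = 0.213). With the replicate block it was 0.27 (SE 0.07, edgeR adjusted p = 0.0191), which did.

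Gpr174, the lysophosphatidylserine receptor, was the other gene whose call depended on the block. It had 142, 160 and 155 CPM in WT 2, 6 and 20, and 122, 146 and 132 CPM in Exon2KO 2, 6 and 20. The groups overlapped, since Exon2KO 6 was above WT 2, but Gpr174 was lower in Exon2KO within each same-numbered pair, as were 20.9% of all tested genes. On the log2 scale it differed by -0.19 (SE 0.09, edgeR adjusted p = 0.439) without the block and -0.19 (SE 0.06, edgeR adjusted p = 0.0491) with it. Gpr174 is the only X-linked gene of the 8, at 107255878 to 107296769, and the pseudogene Gm9208 on the opposite strand within it shares no exon base (log2 fold change 0.051, edgeR adjusted p = 0.989).

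Gpr18, reported as a receptor for N-arachidonoyl glycine, had 28.3, 27.4 and 23.8 CPM in WT 2, 6 and 20 and 24.2, 23.1 and 19.0 CPM in Exon2KO 2, 6 and 20. It too was lower in Exon2KO within each pair, and in both genotypes the library numbered 20 was the lowest. The log2 fold change was -0.26 (SE 0.13, 95% interval -0.55 to 0.03, edgeR adjusted p = 0.488); with the replicate block the adjusted p was 0.0933, so neither fit called it.

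Gpr183, the oxysterol receptor that positions lymphocytes in lymphoid organs, had 35.5, 39.9 and 32.4 CPM in WT 2, 6 and 20 and 35.2, 40.8 and 22.6 CPM in Exon2KO 2, 6 and 20. Pairs 2 and 6 were nearly level, with log2 ratios of -0.013 and 0.032, and pair 20 differed by -0.52. The log2 fold change over all libraries was -0.13 (SE 0.20, 95% interval -0.59 to 0.34, edgeR adjusted p = 0.902). It was 0.077 without Exon2KO 20 and 0.011 without both libraries numbered 20, so its direction rested on 1 library.

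**Figure D3:**
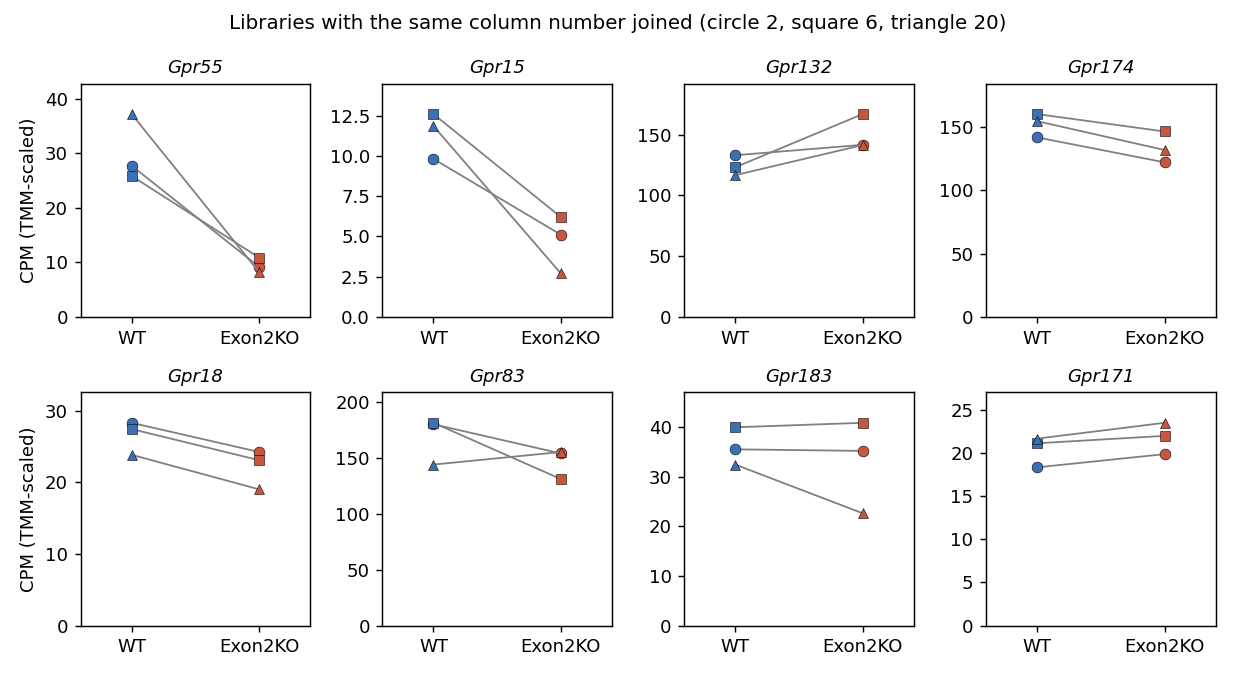
CPM (TMM-scaled, y axes from 0) of each receptor gene in WT and Exon2KO libraries, with libraries of the same column number joined by a line. All 3 lines of Gpr55, Gpr15, Gpr174 and Gpr18 go down, those of Gpr132 and Gpr171 go up, and Gpr83 and Gpr183 have lines in both directions.

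Gpr18 and Gpr183 are neighbours on chromosome 14, at 121911253 to 121915781 and 121952551 to 121965195, with 36769 bases between them. Both lie within Ubac2, on its opposite strand, and share no exon base with it. Ubac2 had a log2 fold change of 0.12 (edgeR adjusted p = 0.745).

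Gpr83 is known as one of the receptors most characteristic of Tregs, and its level was 168 ± 21.2 CPM in WT and 147 ± 13.6 CPM in Exon2KO (SD, n = 3 each). It had 180, 181 and 144 CPM in WT 2, 6 and 20 and 154, 131 and 155 CPM in Exon2KO 2, 6 and 20. The groups overlapped, because WT 20 was lower than 2 of the Exon2KO libraries. The difference was -0.20 on the log2 scale (SE 0.11, 95% interval -0.44 to 0.04, edgeR adjusted p = 0.553), and the block did not call it (adjusted p = 0.326). Pair 20 went the other way from pairs 2 and 6, with log2 ratios of 0.11 against -0.23 and -0.47, and without both libraries numbered 20 the log2 fold change was -0.34 (edgeR adjusted p = 0.146).

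Gpr171, the receptor for a neuropeptide made from the same precursor as the reported ligand of Gpr83, was the most even of the 8. It had 18.3, 21.1 and 21.6 CPM in WT 2, 6 and 20 and 19.8, 22.0 and 23.5 CPM in Exon2KO 2, 6 and 20. The groups overlapped and differed by 0.10 on the log2 scale (SE 0.12, 95% interval -0.18 to 0.37, edgeR adjusted p = 0.869). Its difference was 0.022 without WT 2, 0.034 without Exon2KO 20 and 0.15 without Exon2KO 2. The precursor gene, Pcsk1n, had 1 count over all 6 libraries.

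**Figure D4:**
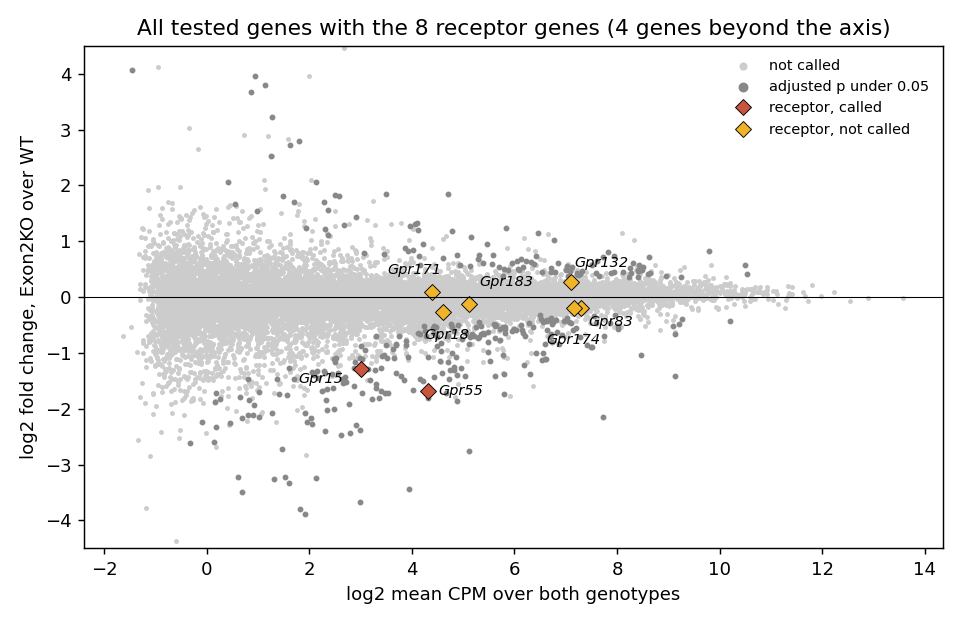
Log2 fold change (y axis, Exon2KO over WT) against log2 mean CPM for all 14919 tested genes, except 4 beyond the axis, with the 8 receptor genes as diamonds, red where called and yellow where not. Gpr55 and Gpr15 lie among the called genes with lower levels, and the other 6 lie in the band around 0.

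Markers of other blood cells were low but not absent, and B cells and myeloid cells can express several of these receptors. The summed level of 7 B cell markers was 39.1 to 45.1 CPM in WT and 32.0 to 34.3 CPM in Exon2KO. The highest of them was Cd79b, with 20.5 to 22.9 CPM in WT and at most 17.0 CPM in Exon2KO. The sum of 9 myeloid and dendritic cell markers was 21.2 to 40.1 CPM in WT and 15.6 to 31.9 CPM in Exon2KO. For 5 CD8 and NK cell markers it was 19.2 to 20.8 CPM in WT and 21.3 to 33.0 CPM in Exon2KO. The top of that range came from Exon2KO 6, where Eomes had 22.5 CPM against 4.55 to 7.27 CPM in the other libraries. Mean levels of Cd8a, Klrb1c and Ncr1 were lower in Exon2KO, and Cd8b1 was nearly level. None of the tested B cell, myeloid, dendritic, CD8 and NK cell markers was called without the block. With it Cd79b, Lyz2 and Zbtb46 were called lower (-0.51, -0.40 and -1.05). None was at 0 in all 6 libraries, although Cd14 was at 0 in 3 and Ebf1 in 1. The part of such cells in the falls of Gpr55 and Gpr15 was not tested. Within the Treg markers Il2ra, Ctla4 and Ikzf2 were called lower (log2 fold changes of -0.52, -0.85 and -0.66), and Foxp3, Cd4, Cd3e and Cd3g were not called.

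Among the tested protein-coding genes with a mean of at least 5 CPM over the 6 libraries and at least as wide a range, Lamc1 was most like Gpr55 over the 6 libraries. The root-mean-square difference of their centred log2 CPM was 0.0617. Next were Cd80 (0.181) and Tnfrsf8 (0.201), all 3 of which were called lower, with log2 fold changes of -1.73, -2.02 and -1.67. Lamc1 encodes a laminin chain, Cd80 a costimulatory ligand and Tnfrsf8 the receptor CD30. Most like Gpr15 were Lima1 (0.149), Vsig10 (0.225) and Serpina3g (0.265), of which Vsig10 was called (log2 fold change -1.63). Most like Gpr132 were Cep68, Abcc5 and Sall2, with differences of 0.0723 to 0.0734, none of them called. The nearest gene to Gpr83 was Ggh (0.0611), to Gpr174 3830406C13Rik (0.0457), to Gpr18 A630001G21Rik (0.0347), to Gpr183 Cdc42ep3 (0.0953) and to Gpr171 Ythdc2 (0.0288). Candidates numbered 88 for Gpr55, 83 for Gpr15 and 1077 to 4981 for the others. The ranking is a description of 6 libraries and was not tested. Genes were ranked on these same libraries, so a change like the receptor's follows from the way they were chosen.

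Of the table's 78 genes named Gpr followed by a digit, 32 were tested, the 8 receptors among them. They had a median log2 fold change of -0.12, with 3 called lower and 1 called higher. The third gene called lower, beside Gpr55 and Gpr15, was Gpr45, an orphan receptor at 2.44 ± 0.390 CPM in WT and 0.706 ± 0.222 CPM in Exon2KO (SD, n = 3 each; log2 fold change -1.78, SE 0.36, edgeR adjusted p = 0.0369). The gene called higher was Gpr146, at 47.4 CPM in WT and 61.7 CPM in Exon2KO on average (log2 fold change 0.38, SE 0.08, edgeR adjusted p = 0.0406). Without any 1 of the 6 libraries Gpr146 lost its call, and 1 to 3 of the Gpr-named genes were called lower. Those called lower without WT 2, WT 6, WT 20, Exon2KO 2 or Exon2KO 20 were all among the 8 receptors. Gpr45 thus lost its call in these fits.

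A list of 27 related receptors had 16 tested genes. It held lysophospholipid, purinergic-like, proton-sensing, cannabinoid and fatty acid receptors, and further Gpr-named receptors such as Gpr146, Gpr160 and Gpr19. Gpr146 was called higher and none was called lower, and the median log2 fold change was -0.052. With the replicate block P2ry10, which like Gpr174 responds to lysophosphatidylserine, was among those called lower (-0.30, edgeR adjusted p = 0.00500). Ffar2, a receptor for short-chain fatty acids with 125 counts in all, joined Gpr146 on the higher side under the block (1.39, edgeR adjusted p = 0.0389). Gpr34, another lysophosphatidylserine receptor, was not called in either fit (-0.12, edgeR adjusted p = 0.867), nor was the cannabinoid receptor Cnr2 (-0.15, edgeR adjusted p = 0.745).

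Of genes that make or break down ligands of the 8 receptors, 19 had a row in the deposited data and 10 were tested; Lpcat1, an acyltransferase that uses up lysophosphatidylcholine, was called lower (-0.32, SE 0.07, edgeR adjusted p = 0.0440) and none was called higher. The call of Lpcat1 was lost when any 1 library was left out. The enzymes of lysophosphatidylinositol, Ddhd1 and Mboat7, had log2 fold changes of 0.032 and -0.038, and those of lysophosphatidylserine, Abhd16a and Abhd12, 0.084 and -0.032. The genes of oxysterol ligands of Gpr183 were too low to test: Ch25h had 16 counts over all 6 libraries, Hsd3b7 had 6, Cyp27a1 had 41 and Cyp7b1 had 0.

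Downstream genes were tested from a list of G protein subunits, receptor kinases and arrestins, of which 23 were in the table and 20 were tested. Grk6, a receptor kinase, was called higher, at 433 CPM in WT and 564 CPM in Exon2KO on average (log2 fold change 0.38, SE 0.08, edgeR adjusted p = 0.0405), a call lost when any 1 library was left out, and none was called lower. With the replicate block Arrb2, an arrestin, was also called higher (0.24, edgeR adjusted p = 0.0206), and Gnaq, Gna12 and Gng2 were called lower (-0.58, -0.28 and -0.34). The alpha subunits of the inhibitory class that were most abundant, Gnai2 and Gnai3, had log2 fold changes of 0.036 and 0.055 and were not called.

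Of 17 RGS genes 10 were tested, with 2 called lower and none higher and a median log2 fold change of -0.33. Rgs9 went from 14.9 to 6.13 CPM on average (log2 fold change -1.28, SE 0.20, edgeR adjusted p = 0.0121) and Rgs3 from 146 to 113 CPM (-0.37, SE 0.07, edgeR adjusted p = 0.0347). Leaving out 1 library gave 0 to 2 called lower (0 without WT 2). With the replicate block 5 were called lower, adding Rgs1, Rgs2 and Rgs16 (-0.27, -0.31 and -0.44). All of these lists were chosen with earlier results of these data known, and their counts are given as descriptions beside the 1.58% of all tested genes called lower and 0.757% called higher without the block, and the 5.79% and 3.93% with it.

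**Figure D5:**
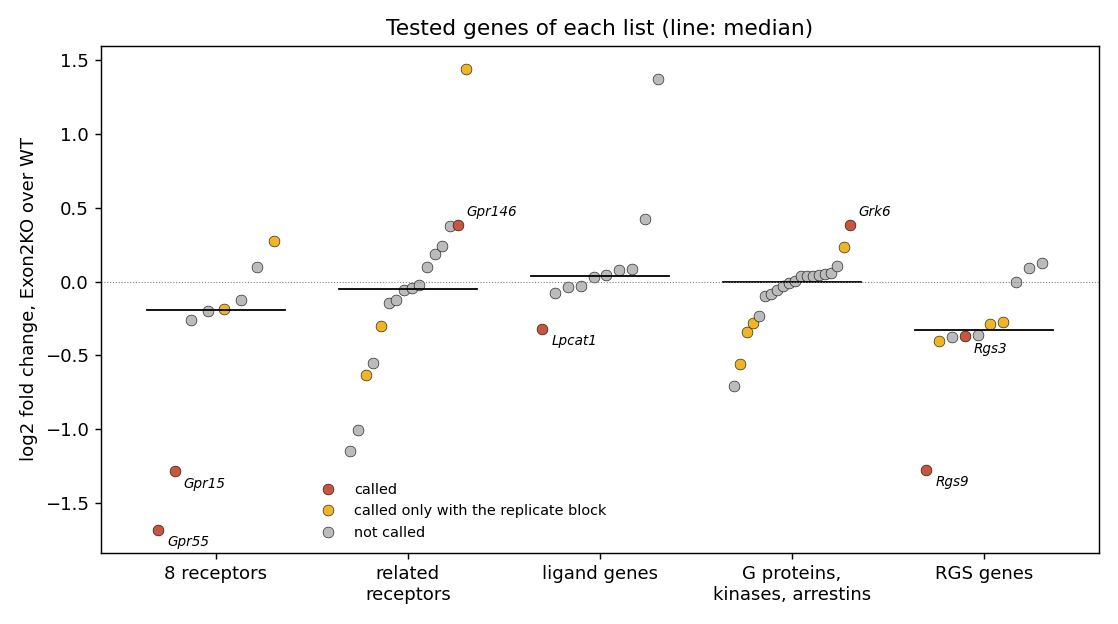
Log2 fold change (Exon2KO over WT) of each tested gene of the 8 receptors and 4 lists, 1 point per gene, with the median as a line; red points were called, yellow ones only with the replicate block. The 3 lowest red points are Gpr55 (-1.68), Gpr15 (-1.29) and Rgs9 (-1.28).

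RefSeq windows were found for 7 of the 8 receptors; Gpr171 had none in the table used. The forkhead motif GTAAACA, searched on both strands, was in none of the 7 windows and in 3.65% of all 32851 windows. Its inner letters AAACA, which every full match also holds, were in 5 of the 7, against 50.5% of all. The Runx motif TGTGGT was in 4 of the 7 (Gpr55, Gpr15, Gpr132 and Gpr18), against 16.8% of all. The AP-1 motif TGANTCA was in the window of Gpr15 only (7.81% of all), the GATA motif AGATAA in that of Gpr174 only (11.2%), the TATA motif TATAAA in that of Gpr83 only (13.6%), and the ETS motif CCGGAA in none (14.9%). Both genes that fell thus had a Runx match, and so did 2 of the other 5. The Runx matches of Gpr15, at -85 and -79 from its RefSeq start, lie inside its GENCODE exon. Its AP-1 match at -199 crosses the edge of that exon. A match shows only that the letters occur in the window.

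The coding sequence of Gpr15, Gpr18, Gpr55, Gpr171, Gpr174 and Gpr183 lies in 1 exon in all of their annotated coding transcripts. That of Gpr132 is split in 2 and that of Gpr83 in 3 or 4. Gpr132 lies on chromosome 12 (112850873 to 112868228), Gpr83 on chromosome 9 (14860210 to 14870789) and Gpr171 on chromosome 3 (59096448 to 59101821), inside Med12l on its opposite strand. Med12l had 146 counts against 2387 for Gpr171 and shares no exon base with it (log2 fold change -0.64, edgeR adjusted p = 0.674).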

How the data were processed

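RNA of mouse Tregs, 3 WT and 3 Exon2KO libraries, was sequenced on libraries from an Illumina kit, per the labels' protocols. The submitters' processing notes name HISAT2 2.0.5, StringTie 1.3.3b, featureCounts 1.5.0-p3, DESeq2 1.16.1 and the build mm10, without roles. Per the file headers the deposited table holds counts per gene, not normalized, and 6 FPKM columns, which were left out: levels planned on FPKM were instead taken from the counts, as CPM per kilobase of the deposited gene length. It also holds the authors' comparison: log2 fold changes, p-values and adjusted p-values. Of 55840 identifiers 55480 are in GENCODE M21 (GRCm38), and 55267, all 8 receptors included, have the same position there.

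Column names give the genotype and a number (2, 6 or 20), so columns were assigned to groups. Nothing says that replicates were separate mice, so p-values measure the spread between these libraries. The chi-square per degree of freedom between same-genotype libraries ran from 8.12 to 23.6, so none was counted as a duplicate. Deviations from the group means correlated across 14919 genes with r = 0.271, 0.369 and 0.494 for the numbers 2, 6 and 20, which was taken as pairing; the pairing comes from the shared column number alone.

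Exon2KO was tested against WT with edgeR 4.0.16 in R 4.3.3 (filterByExpr, TMM, robust quasi-likelihood, two-sided, Benjamini-Hochberg over 14919 genes). SE is the absolute log2 fold change over the square root of F, and 95% intervals are unadjusted. CPM uses TMM-scaled totals; 3 counts are 0.141 to 0.169 CPM, a floor that covers counting error only. Likeness used log2 CPM with a prior count of 2. The scripts were tested on simulated data. Alternatives were dropping the count filter, requiring 10 counts or more per library, RLE and upper-quartile scaling, DESeq2 1.42.0, limma-voom in limma 3.58.1, the replicate block and leaving out each library; leaving out both libraries numbered 20 was added after seeing the data. The members and lists were chosen with earlier results of these data known. Named genes were the 8 receptors, list genes called with or without the block or at the extremes of a count, and genes overlapping a receptor. The 3 most alike genes were named for Gpr55, Gpr15 and Gpr132, and only the most alike gene for each other receptor. A few further list genes are named for their role in ligand metabolism or G protein signalling; this was decided after their values were seen. Values of some list genes are not reported here.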

Additional observations from a re-analysis of the deposited data

How the results depend on the processing

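Gpr55 kept its direction and its call in all 14 alternatives (-1.81 to -1.42). Gpr15 stayed lower in all 14 (-1.56 to -0.99) but lost its call with RLE size factors (-1.285, adjusted p = 0.0511), with limma-voom (-1.35, adjusted p = 0.0504) and in 4 of 6 fits without 1 library (-1.39 to -1.21, adjusted p 0.126 to 0.188), against -1.56 and -1.02 in the other 2 (adjusted p = 0.0392 and 0.0372); its adjusted p ran from 0.000428 to 0.188. The count of receptors called lower was thus 1 in these fits. With the replicate block Gpr132 (0.27) and Gpr174 (-0.19) were called and 1 receptor was higher; their adjusted p ran from 0.0191 to 0.561 and from 0.0491 to 0.878. The block changed no other call among the 8. Gpr183 turned positive without both libraries numbered 20 (0.011), and ran from -0.32 to 0.077 without 1 library (0.077 without Exon2KO 20); it was never called. Without 1 library Gpr132 ran from 0.18 to 0.32 and Gpr174 from -0.27 to -0.13. Gpr83, Gpr18 and Gpr171 kept direction and side, at -0.30 to -0.13, -0.34 to -0.17 and 0.022 to 0.15 without 1 library (Gpr171 was 0.022 without WT 2 and 0.034 without Exon2KO 20).

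The count of 348 called genes (113 higher, 235 lower) was 617 (195 and 422) without a filter, 639 (218 and 421) with DESeq2, 1450 (586 and 864) with the replicate block and 86 to 314 (22 to 115 and 64 to 199) without 1 library; 86 came without Exon2KO 2. The common coefficient of variation was 17.3% without and 8.56% with the block. TMM, RLE and upper-quartile scaling put the median of all genes at 0.0084, 0.0095 and -0.0068.

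Among the related receptors and all Gpr-named genes, the 1 gene called higher was 0 with limma-voom, without both libraries numbered 20 and without any 1 library, and 2 with the block. Related receptors called lower were 0, but 1 with DESeq2, 2 with the block and 0 to 1 without 1 library. Gpr-named genes called lower were 5 with the block and 1 to 3 without 1 library. The ligand gene called lower was 0 with limma-voom, without both libraries numbered 20 and without any 1 library. In the G protein list, genes called higher were 0 with upper-quartile scaling, without both libraries numbered 20 and without any 1 library, and 2 with the block; genes called lower were 2 without a filter or with DESeq2, 3 with the block and 0 to 1 without 1 library. RGS genes called lower were 5 with the block and 0 to 2 without 1 library. Without 1 library the list medians ran from -0.21 to -0.025 (related receptors), -0.059 to 0.049 (G proteins), -0.40 to -0.23 (RGS), -0.22 to -0.15 (Gpr-named) and -0.018 to 0.089 (ligand genes), the last being -0.042 without a filter. Beyond the smaller spread under the block and the fewer libraries or other gene sets of these fits, the cause was not tested.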
